A study of Mus musculus with 8 samples.

Results

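The 10 genes described here encode ephrin ligands and their receptors: the 5 A-type ephrins Efna1 to Efna5, the 3 B-type ephrins Efnb1 to Efnb3, and the receptors Epha2 and Epha4. They were found by symbol among the 37620 genes of a table of RNA levels in 8 single mouse eggs at the MII stage, the arrest in the second meiosis at which oocytes are ovulated. The set was chosen by the measured FPKM of Efna1, already known to differ between the genotypes in these oocytes, with its relatives added by name, so its levels and its difference are a description and were not tested. All 8 oocytes came from the strain C57BL/6 and carried floxed alleles of Hira, whose protein loads histone H3.3 onto chromatin outside replication. The 4 control oocytes (WT) were Hiraf/f, and the 4 others (KO) were Hiraf/f, Gdf9-Cre+, a genotype in which Cre is driven by a promoter active in oocytes. The sample titles tag all 8, the controls included, as Gdf9-Cre+, so the genotypes follow the genotype and description labels. Neither the age nor the number of the females is stated in the labels. No female is named for any oocyte, so each genotype counts as 1 sample, no p-value is given, and every SD below is the spread between 4 single cells.

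Ephrins are ligands tethered to the cell surface that bind Eph receptor tyrosine kinases on a neighbouring cell. A-type ephrins are held by a lipid anchor and chiefly bind EphA receptors, whereas B-type ephrins span the membrane and chiefly bind EphB receptors, and EphA4 binds ligands of both types. Contact signals forward through the receptor's kinase and in reverse through the ligand, and the pair is best known for repulsion and adhesion between cells, in axon guidance and blood vessel growth. In the ovary, mice that lack ephrin-A5 have reduced female fertility. The fully grown oocyte is largely silent in transcription, so its RNA is mostly a store made during growth.

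Levels are given as FPKM, fragments scaled by gene length and by library size, in the table the authors deposited. The whole reads behind each value were recovered from the steps in which the FPKM move. Library totals lay between 38032455 and 50208686 reads. Of these, 84.4% to 86.2% fell in listed genes in the WT oocytes and 75.0% to 80.3% in the KO oocytes, and the part of this difference in the results was not tested. Hira itself held 42, 0, 96 and 1 reads in WT oocytes 1, 2, 4 and 5, and 0, 2, 0 and 2 in KO oocytes 1, 3, 5 and 6. The genotypes overlap, and 44.7% of its exonic bases are shared with Gm28539, so it is a weak check of the labels. A gene was compared where at least 4 of the 8 oocytes reached 1 FPKM, which held for 7833 genes. It held for 4 of the 10 genes described here, namely Efna1, Efna4, Efnb2 and Epha4. Reads were found for 9 of the 10, and Efnb3 had none in any oocyte.

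Efna1, Efna3 and Efna4 stand in a row on the minus strand of chromosome 3, whereas the others lie on separate chromosomes. In GENCODE M21 on GRCm38, Efna1 (ENSMUSG00000027954) spans 89271733 to 89281142, Efna3 (ENSMUSG00000028039) 89313899 to 89322965 and Efna4 (ENSMUSG00000028040) 89333390 to 89338028. The gap between Efna1 and Efna3 is 32.8 kb and that between Efna3 and Efna4 10.4 kb. Efnb2 (ENSMUSG00000001300), the leading ephrin of the WT oocytes, lies on chromosome 8 from 8617434 to 8661242 on the minus strand, and Epha4 (ENSMUSG00000026235) on chromosome 1 from 77367185 to 77515088 on the minus strand. No exonic base of Efna1, Efnb2 or Epha4 is shared with another annotated gene. Of the exonic bases of Efna4, 10.5% also lie in 4731419I09Rik, and of those of Efna3, 14.1% lie in Gm15998, both antisense, and no source used here says whether strand was counted.

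The stretches before the starts of the 3 neighbouring A-type ephrins and of Efnb2 are shown, because these 4 genes stood at very different levels although 3 of them lie side by side. They come from RefSeq on GRCm38.p6, read 5′ to 3′ on the minus strand up to the base before the start and without bases in annotated exons, and capitals mark GC boxes (GGGCGG or, on the other strand, CCGCCC). Efna1 has another RefSeq start further upstream, of whose window 59 bases lie outside exons, and the start with the full window is shown. Efna3 has another one further downstream, and its stretch here is shorter because the bases next to the start lie in an annotated exon.
Efna1, chr3:89279646-89279895: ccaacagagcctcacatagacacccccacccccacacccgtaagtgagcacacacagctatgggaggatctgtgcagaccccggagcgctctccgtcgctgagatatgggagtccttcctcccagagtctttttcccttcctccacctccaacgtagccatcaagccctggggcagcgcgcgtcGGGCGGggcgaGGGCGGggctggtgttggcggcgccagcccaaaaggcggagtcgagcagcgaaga
Efna3, chr3:89322966-89323189: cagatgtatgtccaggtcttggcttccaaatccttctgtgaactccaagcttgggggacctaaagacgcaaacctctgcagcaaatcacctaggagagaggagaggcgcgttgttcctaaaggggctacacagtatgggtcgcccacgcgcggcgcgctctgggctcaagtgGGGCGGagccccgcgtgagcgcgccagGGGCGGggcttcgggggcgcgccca
Efna4, chr3:89338029-89338278: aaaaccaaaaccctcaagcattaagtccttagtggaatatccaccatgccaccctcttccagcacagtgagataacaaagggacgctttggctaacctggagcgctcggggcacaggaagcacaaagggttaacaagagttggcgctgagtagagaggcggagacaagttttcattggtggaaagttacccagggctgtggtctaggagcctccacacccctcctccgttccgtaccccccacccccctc
Efnb2, chr8:8661243-8661492: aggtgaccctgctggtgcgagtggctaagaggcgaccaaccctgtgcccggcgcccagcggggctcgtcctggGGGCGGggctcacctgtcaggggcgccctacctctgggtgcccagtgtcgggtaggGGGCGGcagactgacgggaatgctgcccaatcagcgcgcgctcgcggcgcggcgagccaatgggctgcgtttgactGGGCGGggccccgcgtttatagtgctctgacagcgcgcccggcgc
The Efna1 stretch of 250 bases held 2 GC boxes, 18 CpG and 64.4% G or C. The Efna3 stretch of 224 bases likewise held 2 GC boxes and 18 CpG, at 63.4% G or C. Efna4 held no GC box and 7 CpG at 54.4%, and Efnb2 3 GC boxes and 27 CpG at 72%. Of 32851 windows of 250 bases before RefSeq starts of all genes, 32.7% held a GC box, and the medians were 6 CpG and 52.4% G or C. A TATA box (TATAAA or TTTATA), found in 12.4% of all windows, occurred among the 4 stretches only before Efnb2. A CCAAT box (CCAAT or ATTGG), found in 33.8% of all windows, occurred in 1 copy before Efna4 and 2 copies before Efnb2. These matches describe the letters and not binding.

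Efna1, which encodes ephrin-A1, a ligand of EphA receptors, differed most among the 10 on the log2(FPKM + 1) scale. The WT oocytes numbered 1, 2, 4 and 5 had 20.3, 10.5, 8.88 and 7.49 FPKM of Efna1. The KO oocytes numbered 1, 3, 5 and 6 had 237.0, 158.5, 212.9 and 170.6 FPKM. The lowest KO oocyte lay far above the highest WT oocyte. The mean was 11.8 ± 5.80 FPKM in the controls and 194.7 ± 36.6 in the KO oocytes (SD, n = 4 each), a 16.5-fold difference. On that log2 scale, which understates changes of low genes, Efna1 differed by 4.01, where the spread within a genotype was 0.45 (SD). The WT oocytes held 3806 Efna1 reads in all (exact Poisson 95% interval 3686 to 3929) and the KO oocytes 62042 (61555 to 62532). These intervals cover counting error only, since PCR copies of 1 molecule are counted as several reads. By its FPKM, Efna1 stood between rank 1854 and rank 3200 of all genes in the WT oocytes and between rank 195 and rank 273 in the KO oocytes. WT oocyte 1, with the most Efna1 among the controls, set part of the fold, which was 21.8 without it and between 14.7 and 17.6 when any other oocyte was left out.

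**Figure D1:**
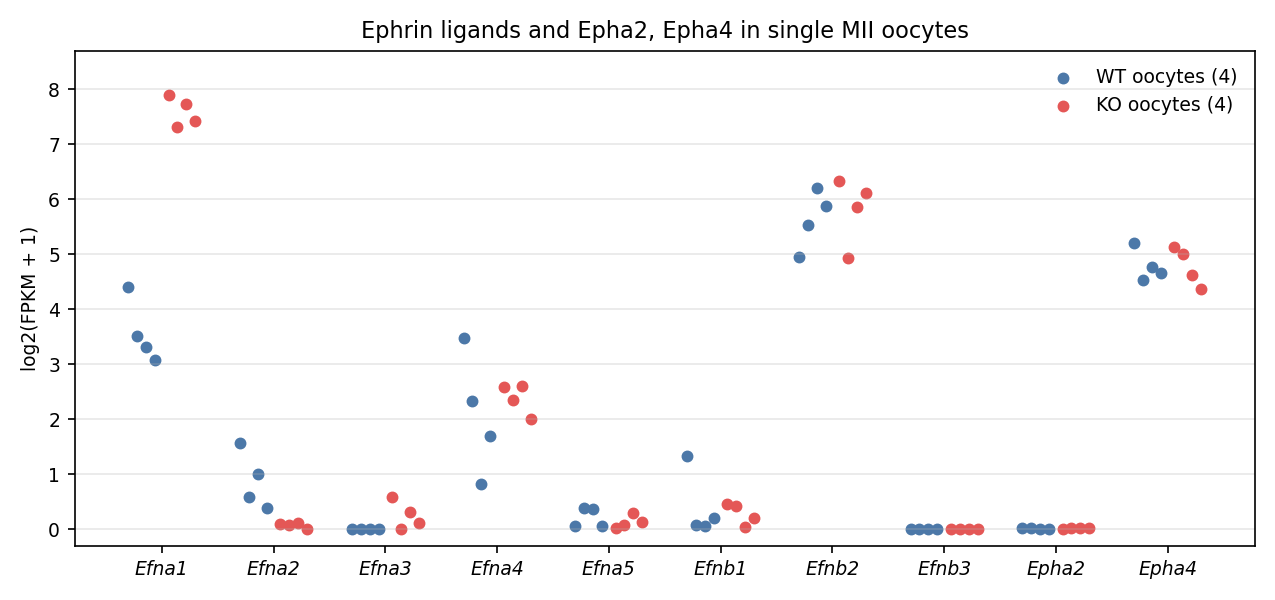
Levels of the 10 genes in each oocyte as log2(FPKM + 1), with WT oocytes in blue and KO oocytes in red. The genotypes are far apart for Efna1 and overlap for Efnb2, Efna4 and Epha4. The other genes are low, with Efna2 at 1.97 FPKM and Efnb1 at 1.52 FPKM in WT oocyte 1. Efna2 is lower in every KO oocyte than in any WT oocyte.

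Of the 4 compared genes, 1 passed 2-fold upward in KO and 0 downward. Over all 7833 compared genes these shares were 18.3% and 6.84%. The 1 higher gene is Efna1, around which the set was built, so nothing is read from its count. The median difference of the 4 genes was 0.23 on the log2(FPKM + 1) scale, beside 0.10 over all compared genes. Groups that did not overlap, with KO higher, were found for 13.4% of compared genes, Efna1 among them, and with KO lower for 7.37%.

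Efnb2, which encodes the transmembrane ligand ephrin-B2 known from the arterial endothelium, was the most abundant ephrin RNA in each WT oocyte and was similar in the 2 genotypes. The WT oocytes 1, 2, 4 and 5 had 29.97, 45.4, 72.8 and 57.9 FPKM, and the KO oocytes 1, 3, 5 and 6 had 79.6, 29.4, 57.1 and 67.8. Both genotypes ran from about the same lowest to about the same highest value. The means were 51.5 ± 18.2 and 58.5 ± 21.4 FPKM, a ratio of 1.13, and the reads summed to 44122 in WT and 49437 in KO.

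Efna4, which encodes ephrin-A4 and is the ephrin gene next but one to Efna1, had a mean of 4.27 ± 4.09 FPKM in WT, against 4.29 ± 0.958 in KO. The WT oocytes 1, 2, 4 and 5 had 10.1, 4.02, 0.760 and 2.24 FPKM, and the KO oocytes 1, 3, 5 and 6 had 4.98, 4.10, 5.07 and 3.01. All KO values lay inside the wider WT range. The reads summed to 1183 in WT and 1186 in KO. The near-equal means rest on WT oocyte 1, without which the ratio of KO to WT was 1.84.

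Efna3, the ephrin gene nearest to Efna1, had no read in any WT oocyte. The KO oocytes 1, 3, 5 and 6 held 52, 0, 26 and 9 reads, at most 0.494 FPKM. Its mean in KO, 0.204 FPKM, was at least 7.22-fold above the 0.0282 FPKM that 3 reads per library give in WT. The 3 neighbours therefore stood at very different levels in the KO oocytes, where Efna1 averaged 194.7 FPKM.

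Efna2, encoding ephrin-A2, was lower in KO, at levels under the filter. The WT oocytes 1, 2, 4 and 5 had 1.97, 0.508, 1.00 and 0.308 FPKM from 181, 49, 107 and 25 reads. The KO oocytes 1, 3, 5 and 6 had 6, 5, 7 and 0 reads, at most 0.0744 FPKM. Every WT oocyte exceeded every KO oocyte. The summed reads were 362 (exact Poisson 95% interval 325.7 to 401.3) in WT and 18 (10.7 to 28.4) in KO, and the mean FPKM was 18.95-fold lower in KO, or 12.1-fold without WT oocyte 1.

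The remaining ephrins had few reads. Efna5, encoding ephrin-A5, had 127 reads in WT and 70 in KO, with FPKM from 0.0390 to 0.301 and from 0.0172 to 0.230. Efnb1, encoding ephrin-B1, had 262 reads in WT, of which 227 were in WT oocyte 1, and 128 in KO. Its mean was 2.02-fold lower in KO, but without WT oocyte 1 it was 2.69-fold higher in KO. Efnb3, encoding ephrin-B3, had no read, which allows up to 3 reads per library.

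The make-up of ephrin ligand RNA therefore differed between the genotypes, which restates the Efna1 values over the family. FPKM, being per length, can be summed over genes. The 8 ephrin genes together reached 69.1 ± 10.2 FPKM in WT and 258.1 ± 54.8 in KO. Efna1 made up 31.8% of this sum in WT oocyte 1 and as little as 10.6% in the other WT oocytes, against 70.6% to 82.4% in the KO oocytes. Efnb2 made up 46.9% to 86.9% in WT and 15.3% to 28.1% in KO. Without Efna1, the remaining 7 ephrins summed to 57.4 ± 13.6 FPKM in WT and 63.3 ± 21.7 in KO, with overlap.

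**Figure D2:**
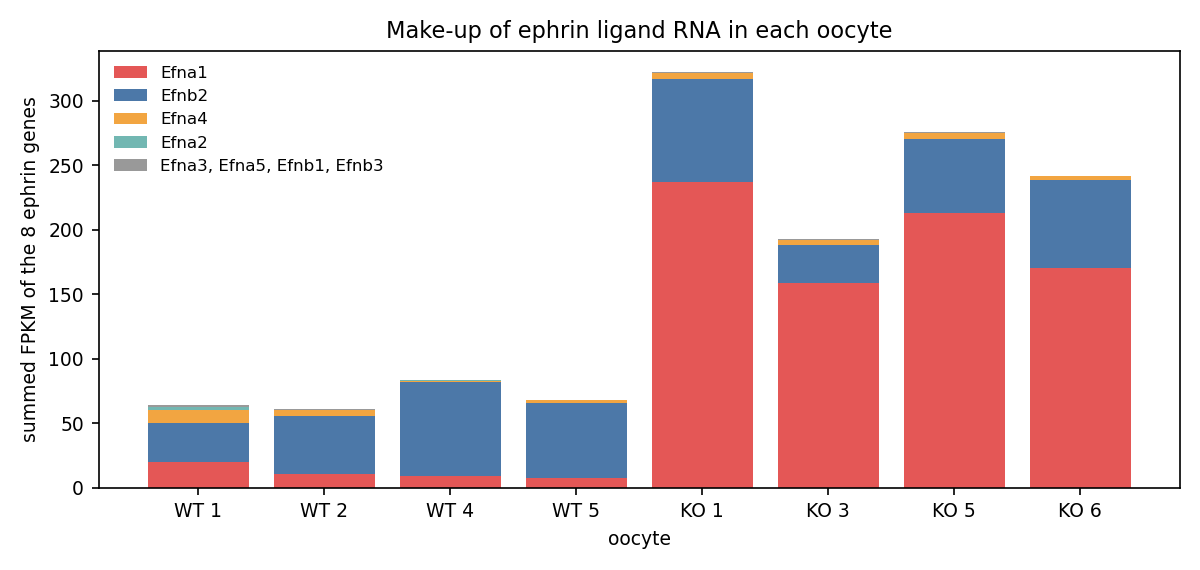
Summed FPKM of the 8 ephrin genes in each oocyte, stacked by gene. The stack is mostly Efnb2 in WT oocytes 2, 4 and 5, and mostly Efna1 in all 4 KO oocytes, where the sum lay between 192.4 and 322.4 FPKM.

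Of the receptors, Epha4, an EphA receptor that binds both types of ephrin, was the most abundant in every oocyte. The WT oocytes 1, 2, 4 and 5 had 36.0, 22.04, 26.2 and 24.3 FPKM of Epha4, and the KO oocytes 1, 3, 5 and 6 had 33.95, 31.1, 23.8 and 19.7. The means were 27.1 ± 6.14 and 27.1 ± 6.56 FPKM, with overlap. On the log2 scale Epha4 differed by -0.01, a sign that turned to 0.20 when FPKM were rescaled to a common sum per library. Epha2, known as the main receptor of ephrin-A1 in epithelia, had 4 reads in WT and 7 in KO in all. Among the 4 compared genes, the order of mean FPKM in WT was Efnb2, Epha4, Efna1 and Efna4, in which Efnb2 overlapped Epha4 and Efna1 overlapped Efna4. In KO the order was Efna1, Efnb2, Epha4 and Efna4, and the only neighbours in it that overlapped were Efnb2 and Epha4. These overlaps are across oocytes. Within single oocytes, Efna1 was above Efna4 in every WT oocyte. Efnb2 was above Epha4 in all oocytes but WT oocyte 1 and KO oocyte 3.

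The 12 other Eph receptor genes were mostly low, and Epha3 stood out among them. It encodes an EphA receptor that binds A-type ephrins. The WT oocytes 1, 2, 4 and 5 had 9.72, 9.91, 7.72 and 7.01 FPKM of Epha3, and the KO oocytes 1, 3, 5 and 6 had 3.54, 2.41, 1.96 and 0.205. Every KO oocyte lay below every WT oocyte. The means were 8.59 ± 1.45 and 2.03 ± 1.38 FPKM, 4.24-fold lower in KO, and between 3.26-fold and 5.64-fold when any 1 oocyte was left out. Epha6 averaged 1.34 ± 0.756 FPKM in WT and 1.41 ± 0.222 in KO.

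Ephb1, a receptor of B-type ephrins, had no read in the WT oocytes. The KO oocytes 1, 3, 5 and 6 held 225, 78, 41 and 303 reads, or 0.802, 0.308, 0.143 and 0.986 FPKM. The KO mean of 0.560 FPKM was at least 53.0-fold above what 3 reads per library give in WT. Epha5 averaged 0.368 and 0.729 FPKM, Epha7 0.247 and 0.126, Ephb4 0.0950 and 0.233, Ephb6 0.152 and 0.0899 and Epha10 0.0366 and 0.0311 in WT and KO, all with overlap. Single oocytes set these ratios of KO to WT. They were 4.12 for Epha5, 0.906 for Epha7 and 6.15 for Ephb6 without WT oocyte 4, and 6.44 for Ephb4 and 2.84 for Epha10 without WT oocyte 2. Without KO oocyte 1 they were 1.61 for Ephb4 and 0.170 for Ephb6. Epha1 had 7 reads, all in KO, and Epha8, Ephb2 and Ephb3 had none in any oocyte. The 14 receptors summed to 38.0 ± 6.56 FPKM in WT and 32.3 ± 7.80 in KO, with overlap. Without Epha4 the sum was 10.8 ± 1.47 and 5.23 ± 1.31, with no overlap between 8.78 to 12.3 in WT and 4.13 to 6.89 in KO. Epha3 made up most of that sum in WT, at 8.59 FPKM against 2.03 in KO. The means of the receptors other than Epha3 and Epha4 went in both directions, so the lower sum does not describe them as a group.

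**Figure D3:**
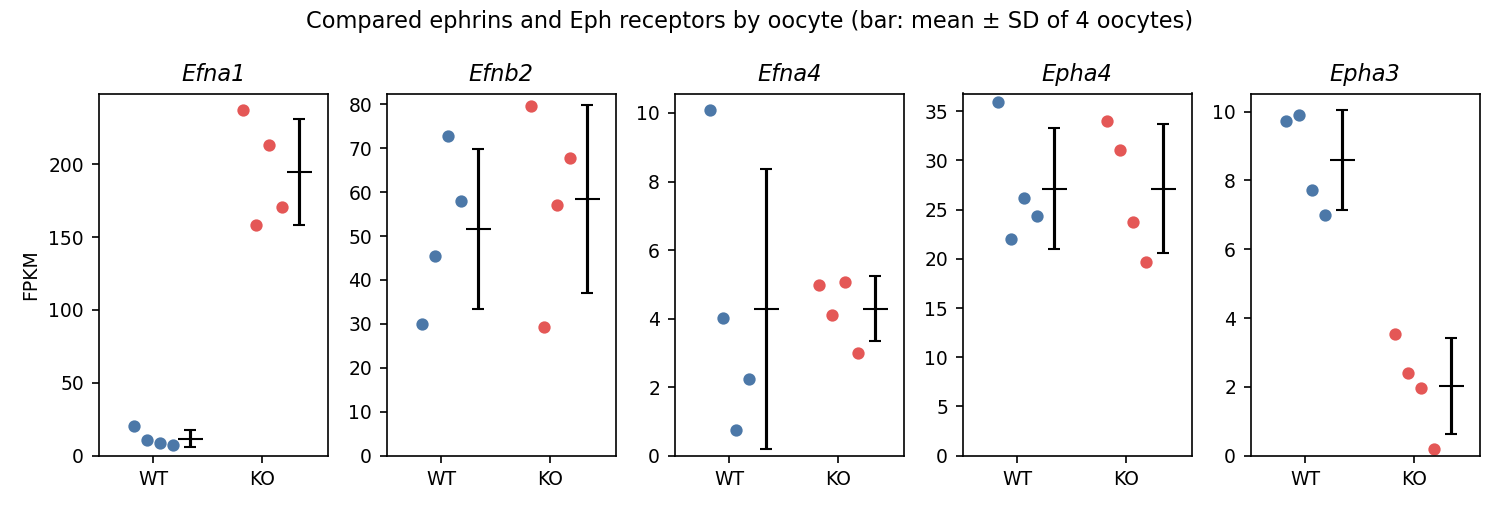
FPKM by oocyte of the 3 compared ephrins, Epha4 and Epha3, with points for single oocytes and bars for the mean ± SD of 4 oocytes; each panel has its own axis from 0. Efna1 is higher and Epha3 lower in every KO oocyte than in any WT oocyte, and the other genes overlap.

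Genes that act with Eph receptors and ephrins were taken from 3 lists of 61 genes in all, among them Epha2 and Epha4. Of these, 32 were compared. At least 2-fold higher in KO were 3, against 18.3% of all compared genes, and at least 2-fold lower were 2, against 6.84%. The median difference was 0.02, beside 0.10 over all compared genes. Of the 14 receptors 3 were compared, with 0 higher and 1 lower, which is Epha3.

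Of 37 adaptors, exchange factors, kinases and phosphatases of Eph receptor signalling, 24 were compared, with 2 higher and 0 lower. Lyn, a Src-family kinase, had a mean of 1.94 ± 1.28 FPKM in WT against 5.60 ± 3.22 in KO, 2.89-fold higher with overlap between genotypes. Vav3, a guanine nucleotide exchange factor, had 2.92 ± 0.614 and 5.90 ± 2.24 FPKM, 2.02-fold higher with overlap. Its fold lay between 1.78 and 2.31 when any 1 oocyte was left out, and was 1.89 without WT oocyte 1, 1.93 without WT oocyte 4, 1.83 without KO oocyte 5 and 1.78 without KO oocyte 6. The most abundant genes of this list stayed within 2-fold. Rock1, a kinase of actomyosin contraction, had 302.3 ± 73.9 FPKM in WT against 244.2 ± 19.8 in KO, and Acp1, a phosphatase that acts on Eph receptors, 70.1 ± 6.29 and 75.7 ± 6.40. Cdc42, a small GTPase of the actin cytoskeleton, had 62.4 ± 10.5 and 75.3 ± 5.04 FPKM. Rac1, another such GTPase, had 53.4 ± 5.34 and 84.0 ± 11.6 FPKM with no overlap. Of its exonic bases in GENCODE M21, 51.4% also lie in Daglb, though its values fit another exon length.

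Of 10 proteins that bind ephrin-B tails or that cleave or remove ephrins and their receptors, 5 were compared, with 1 higher and 1 lower. Sdcbp encodes syntenin, a scaffold that binds the tails of B-type ephrins. The WT oocytes 1, 2, 4 and 5 had 10.3, 4.86, 6.81 and 7.41 FPKM of Sdcbp, and the KO oocytes 1, 3, 5 and 6 had 3.66, 2.67, 1.42 and 0.878. The genotypes did not overlap, and the mean was 3.404-fold lower in KO. Cbl, a ubiquitin ligase that removes receptor tyrosine kinases, was 2.99-fold higher in KO, with 0.467 ± 0.520 and 1.39 ± 0.434 FPKM and overlap. Its fold was 5.35 without WT oocyte 4. Adam10, the membrane protease that sheds ephrins, averaged 41.9 ± 5.96 and 34.1 ± 6.58 FPKM, within 2-fold.

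**Figure D4:**
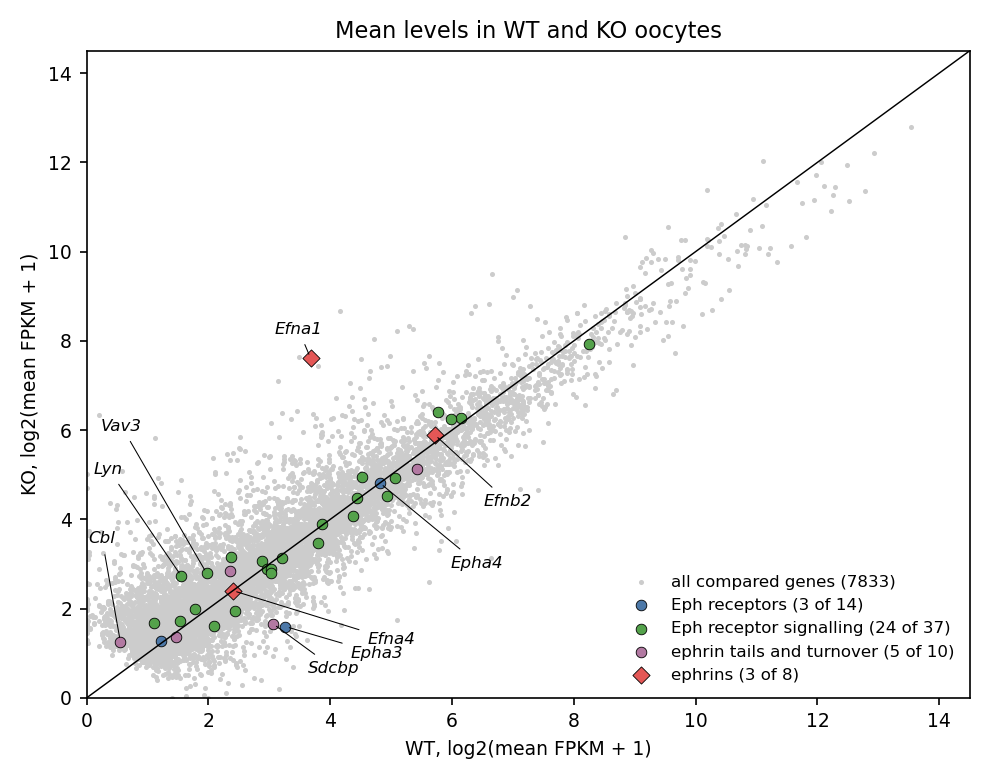
Mean FPKM of each compared gene in WT and KO oocytes as log2(mean FPKM + 1), with all 7833 genes in grey, the 3 lists in colour and the 3 compared ephrins as red diamonds. Efna1 lies far above the line of equal levels, Epha3 and Sdcbp lie below it, and the other labelled ephrins and Epha4 lie on or near it.

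The compared genes around Efna1 on chromosome 3 differed less than Efna1 did. GENCODE M21 annotates 43 other genes that reach within 250 kb of Efna1, of which 37 were in the table and 9 were compared. Of those 9, 2 passed 2-fold upward in KO and 0 downward, beside 18.3% and 6.84% of all compared genes. Ash1l, a histone methyltransferase gene on the downstream side whose end reaches that window, had 1.43 ± 0.394 FPKM in WT against 3.62 ± 1.19 in KO, a ratio of 2.53 with no overlap. Fdps, which encodes farnesyl diphosphate synthase of the isoprenoid pathway, was 2.01-fold higher with overlap, and 4.08-fold without WT oocyte 1. It fell short of 2-fold without WT oocyte 4 (1.62), WT oocyte 5 (1.51), KO oocyte 3 (1.43) or KO oocyte 6 (1.69). Of its exonic bases in GENCODE M21, 26.7% also lie in Gm43738, though its values fit another exon length.

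The other 7 stayed within 2-fold over all 8 oocytes, though 4 of them passed it without 1 oocyte. Cks1b, a cyclin-dependent kinase subunit, averaged 720.6 ± 41.5 and 911.4 ± 218 FPKM, and the adaptor gene Shc1 2.33 and 2.91. Flad1, of FAD synthesis, had 0.862 and 1.53 FPKM, Scamp3, of vesicle traffic, 1.93 and 2.55, and Clk2, a kinase of splicing factors, 6.27 and 3.76. The ratio of KO to WT for Scamp3 was 1.32, and 2.28 without WT oocyte 1. That for Flad1 was 2.29 without KO oocyte 3, and Clk2 was 2.10-fold lower in KO without KO oocyte 1. Dpm3, of dolichol-phosphate-mannose synthesis, had 1.15 and 0.737 FPKM, and KO oocyte 3 alone had 2.87. It was 46.8-fold lower in KO without that oocyte and 2.09-fold lower without WT oocyte 2. Efna4 is given above. Slc50a1, the annotated gene next to Efna1 on its downstream side, had no read in WT and 56 in KO, all in KO oocyte 1. Gm22642, the next on the upstream side, had no read. Neighbours under the filter differed in both directions, more of them upward, as did all genes without the filter (36.9% higher and 15.6% lower by 2-fold). Kcnn3, Zbtb7b, Fam189b and Rusc1 were 10.9-, 4.24-, 3.23- and 2.66-fold higher in KO, and Gm15998 was 6.62-fold lower, all with overlap. Single oocytes set much of these folds. Gm15998 had 118 of its 120 WT reads in WT oocyte 2. Rusc1 had 37 of 38 WT reads in WT oocyte 2 and 97 of 105 KO reads in KO oocyte 6. Kcnn3 had all 18 WT reads in WT oocyte 4 and 118 of 171 KO reads in KO oocyte 5. Of the KO reads, Zbtb7b had 114 of 214 in KO oocyte 1 and Fam189b 241 of 432 in KO oocyte 5. Adam15, a membrane protease gene beyond Efna4, had 92 reads in WT and 962 in KO, or 0.0916 and 0.929 FPKM, with no overlap, and 20.6% of its exonic bases lie in 4731419I09Rik. Krtcap2, of the oligosaccharyltransferase complex, was 4.84-fold lower in KO, with 1.08 and 0.223 FPKM, and Pygo2, of Wnt signalling, 3.17-fold lower, with 0.981 and 0.309, both with overlap.

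**Figure D5:**
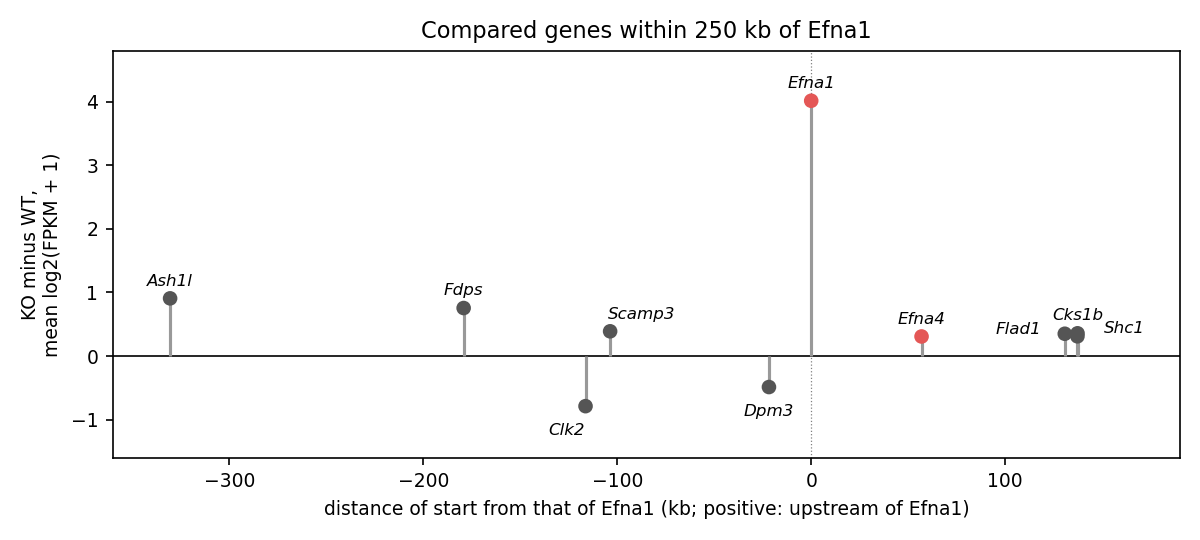
Difference between KO and WT means of log2(FPKM + 1) for compared genes within 250 kb of Efna1, by the distance of their start from that of Efna1 in kb. Efna1 stands at 4.01, and the other 9 genes lie between -0.79 and 0.91.

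The genes whose pattern over the 8 oocytes was most like that of Efna1 were looked for among all compared genes by the root-mean-square difference between log2(FPKM + 1) profiles, each centred on its own mean. The 6 nearest were Ptgds at 0.53, Hes1 at 0.56, Armc3 at 0.58, Krt73 at 0.58, Tapbpl at 0.59 and Olfr1340 at 0.61, where the median over all genes was 2.04. All 6 were higher in every KO oocyte than in any WT oocyte, which the measure favours. Ptgds, the prostaglandin D2 synthase gene, went from 0.430 ± 0.521 FPKM in the controls to 14.4 ± 3.98 in the KO oocytes, a ratio of 33.6. That ratio was 65.1 if WT oocyte 1 is left out, and 25.2 without WT oocyte 2 or WT oocyte 5. Armc3, an armadillo-repeat gene, averaged 0.584 ± 0.229 and 14.46 ± 3.98 FPKM, 24.8-fold higher. Krt73, a keratin gene, had 5 reads in WT and 4408 in KO in all. Hes1, a transcriptional repressor that Notch induces, had 114 reads and 6906, and its fold was 131.9 without WT oocyte 4. Tapbpl, of peptide loading on MHC class I, was the only one of the 6 whose mean in KO, 197.0 FPKM, was as high as that of Efna1, and the olfactory receptor gene Olfr1340 had 1 read in WT and 4152 in KO.

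Markers of oocytes and of other cells of the ovary were read in the same libraries. All 10 oocyte markers were compared, and they summed to 12064 to 17627 FPKM in WT and 7907 to 10278 in KO. Dppa3 made up most of the sum, at a mean of 11910 FPKM in WT and 7077 in KO. The means of Gdf9, Bmp15, Mos, Zp1, Zp2 and Zp3 were also lower in KO, whereas those of Nlrp5, Padi6 and Ooep were higher. Of 16 cumulus and granulosa cell markers, 2 were compared, and Amh, Foxl2, Inha, Cyp11a1 and Gja1 had no read in any oocyte. The list summed to 17.1 to 31.3 FPKM in WT and 8.52 to 33.4 in KO, with overlap, most of it Cyp19a1, at 21.5 FPKM in WT and 21.8 in KO and so above Efna1 in WT, followed by Kitl and Hsd3b1. Of 8 stroma and endothelium markers 1 was compared, Pecam1, an adhesion molecule of endothelium, and Dcn and Kdr followed. Pecam1 was at 2.88 to 6.95 FPKM in WT and 0.718 to 1.37 in KO, with means of 5.02 and 0.938 and no overlap, lower in KO as Epha3 and Sdcbp were. Cdh5, a defining gene of endothelium, Col3a1 and Pdgfra had no read. This list summed to 2.89 to 11.4 FPKM in WT and 1.10 to 3.21 in KO, with overlap, and its part in the Efna1, Epha3 and Sdcbp differences was not tested. Of 7 blood and immune markers none was compared, 4 had no read, Hba-a1 and Hbb-bs included, and the sum reached at most 0.984 FPKM in WT and 1.81 in KO, from Ptprc, Cd79a and Itgam.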

How the data were processed

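RNA levels of 8 single MII oocytes, 4 WT and 4 KO, were used as FPKM in 1 table deposited by the authors. Per the labels' protocols, cDNA was amplified from each oocyte with a SMARTer kit and ERCC spike-in RNA was added; no ERCC values were used here, so levels are relative within a library. Build mm9, HTSeq, Bowtie2, TopHat, TopHat2 2.0.2, edgeR 3.1.10 and Bowtie 0.12.8 are named without roles in the submitters' processing notes, and no source used here gives gene lengths or use of strand. Symbols matched 32897 of 37620 identifiers. Coordinates are GENCODE M21 on GRCm38, and none was carried over from mm9. Shares of exonic bases are also of M21 exons. The values of Rac1, Fdps, Adam15 and Hira fit another exon length, so the exons behind them are not known.

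Library totals were found as the numbers that turn FPKM into whole reads for genes whose exon length equals that of GENCODE M21. The M21 length was used for 8169 of the 18416 genes with any read. The others, Efnb2, Epha4, Epha3 and Ephb1 among them, were given the smallest length found to make their values whole. Their reads depend on that fitted length. For them the step itself makes values whole, so the 100.0% of values above 0 that were whole within 0.0001 reads does not check the totals. The recovery and the fold changes were also run on counts simulated from these genes' own mean reads and lengths. That simulation held no PCR copies, so it checks the code and not the values given here. Log2 differences subtract the WT mean of log2(FPKM + 1) from that of KO, folds are ratios of mean FPKM, and a fold against a genotype with no read uses 3 reads per library. Each genotype is 1 sample, so no test was run. Genes, lists and the naming rule were chosen with earlier results of these data known. The rule names the 10 genes, Eph receptors with a read, list genes past 2-fold and the 4 most abundant. It adds compared genes within 250 kb of Efna1 and the nearest on each side. The 6 most like Efna1 and up to 3 markers per list complete it. The oocyte markers, Adam10, Adam15, Fam189b, Gm15998, Kcnn3, Krtcap2, Pygo2, Rusc1, Zbtb7b and the genes with no read were named after their values were seen. Alternatives covered the pseudocount, filter, scaling, each oocyte left out and a replicate block. Python 3.11.15, pandas 2.3.3, numpy 2.4.6 and scipy 1.17.1 were used.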

Additional observations from a re-analysis of the deposited data

Results flagged for a closer look

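Each value below had 1 of 4 oocytes of a genotype whose gap to the nearest other exceeded, as a part of the whole range, Dixon's 95% critical value for 4 values. Of 77 groups of 4 looked at, over 41 named genes, 8 passed it. For normally distributed values chance flags about 1 in 20 groups, but FPKM near 0 are skewed. A group with reads in only 1 oocyte always reaches a ratio of 1. No excess over chance is therefore read from this count. Efnb1 in WT passed at 0.921, with 1.52 FPKM in WT oocyte 1 and at most 0.152 in the others. Ephb6 in WT passed at 0.935, with 107 reads in WT oocyte 4 and 7 in the others. Epha10 in KO passed at 1, as all 35 reads were in KO oocyte 3. Lyn in WT passed at 0.877, with 3.85 FPKM in WT oocyte 1 and 1.17 to 1.501 in the others. Cdc42 in KO passed at 0.868, with 67.8 FPKM in KO oocyte 3 and 77.0 to 78.4 in the others. Dpm3 in KO passed at 0.974, with 103 reads in KO oocyte 3 and 3 in the others. Tapbpl in WT passed at 0.894, with 16.1 FPKM in WT oocyte 2 and 7.86 to 8.74 in the others. Olfr1340 in WT passed at 1, on a single read.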

How the results depend on the processing

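The Efna1 difference of 4.01 lay between 3.61 with a pseudocount of 5 and 4.31 with FPKM rescaled to a common sum per library, and between 3.85 and 4.29 when 1 oocyte was left out. That rescaling moved the median of all genes from 0.10 to 0.31, and quantile normalization moved it to -0.07. The oocyte numbers 1 and 5 occur in both genotypes but name single cells, and deviations of same-numbered oocytes correlated at 0.03 and 0.07 across 7833 genes. With only the oocytes of these 2 numbers kept, 2 per genotype, the Efna1 difference was 4.07. With no filter, 2 of 9 members were at least 2-fold higher and 2 lower in KO, and 13 of 56 list genes higher and 3 lower, against 36.9% and 15.6% of all genes. With a mean of at least 5 FPKM, 0 of 21 list genes were higher and 1 lower, against 12.8% and 6.27%. With the rescaled FPKM, 5 of 32 list genes were higher, against 23.6%. Leaving out 1 oocyte gave a median of the 4 compared members from 0.11 to 0.45, 2 to 4 list genes higher and 2 to 3 lower. Of 560 values for 40 single genes, 502 moved by no more than 1 SD of that gene's own spread within a genotype. Genes with a wide spread pass this limit easily, and Efnb3, with no read, could not move. The count is therefore no measure of how firm the differences are. Efnb1 lay between -0.26 and 0.16 when 1 oocyte was left out, turning to 0.16 without WT oocyte 1. Fdps turned to -0.13 with only the oocytes numbered 1 and 5 kept. The cause of these turns was not tested. Depth limits genes of a few reads, and 3 reads of Efna1 equal 0.0327 to 0.0431 FPKM.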

Other observations

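In each genotype 1 oocyte held the top place for several of the 4 compared members, while the order of the others differed between genes. WT oocyte 1 had the highest value of the WT oocytes for 3 of the 4, namely Efna1, Efna4 and Epha4, and it was the highest for 30.4% of all compared genes. It had the lowest Efnb2 of the WT oocytes, at 29.97 FPKM. KO oocyte 1 was the highest of the KO oocytes for 3 of the 4, namely Efna1, Efnb2 and Epha4, and for 23.6% of all compared genes. These counts were made after the values were seen and carry no test.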
